A study of Homo sapiens with 12 samples.

Results

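HSF1, the master transcription factor of the heat shock response, and 9 heat shock protein genes were followed in 2 human ovarian cancer cell lines treated with THZ1. The 10 genes (HSF1, HSPA1A, HSPA1B, HSPA8, HSPA5, HSP90AA1, HSP90AB1, HSPB1, DNAJB1 and HSPH1) were chosen by exact name among 23621 gene rows of the expression tables, and all 10 were among the 14251 genes taken as active, with an FPKM above 1 in at least 1 of 12 libraries. KURAMOCHI (Ku) cells, grown in RPMI, and COV362 (Cov) cells, grown in DMEM, were untransduced and received DMSO, the vehicle, or THZ1 at 50 nM or 250 nM for 6 hr. Each of the 6 groups had 2 libraries. THZ1 is a covalent inhibitor of CDK7, a kinase of the transcription machinery, that also binds CDK12 and CDK13. All values are FPKM, read levels corrected for transcript length, which the authors had scaled to ERCC spike-in RNAs added per cell number, a scale set relative to cell number. Each line is 1 established culture model, each line has its own table, and the lines were not tested against each other.

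Heat shock proteins are molecular chaperones that bind unfolded proteins and help them fold, hold them in solution or pass them on for degradation. HSP70 proteins do this in cycles of ATP binding and release that are driven by J-domain partners such as DNAJB1 and reset by exchange factors such as HSPH1, and HSP90 proteins take over partly folded clients, among them many kinases and receptors. In unstressed cells HSF1 is kept inactive by binding to chaperones. When unfolded proteins draw the chaperones away, HSF1 forms trimers and binds repeats of the unit GAA in the promoters of stress-inducible genes. Cancer cells often carry high levels of these chaperones.

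The labelled cell types were checked against marker genes. Both lines expressed PAX8, a Muellerian lineage factor, at 120.3 to 139.97 FPKM in DMSO, and the epithelial keratin genes KRT8 and KRT18 at 744 to 2489 FPKM. WT1, a serous ovarian marker, lay at 53.4 to 60.1 FPKM in Ku and below 1 FPKM in Cov, where it reached 0.741. The epithelial gene EPCAM was low in Ku, at 4.01 to 4.24 FPKM, and lay at 149.9 to 174 FPKM in Cov. KRT7, another epithelial keratin gene, was at 4.54 to 4.68 FPKM in Ku DMSO libraries and at 1287 to 1423 in Cov. The fibroblast collagen gene COL1A1 was low but not absent, at 2.46 to 2.59 FPKM in Ku DMSO libraries and 3.13 to 3.2 in Cov. The leukocyte gene PTPRC and the endothelial gene PECAM1 did not pass 0.378 FPKM in any library. Across the active genes, the libraries of a group were correlated at r = 0.968 to 0.983 on the log2 scale (genes, not independent replicates).

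The sequences just upstream of 6 of the genes are shown because they hold DNA words of the kind that HSF1 or, in HSPA5, the ER stress factors are known to bind. No one word was found in all members. They were read from RefSeq promoter windows and placed on GRCh37, the build of the tables, by exact match. In each, capitals mark a match to GAANNTTC or TTCNNGAA, the facing pairs of GAA units, or in HSPA5 to the ER stress element. Each window ends just before the start of the main transcript or before the first annotated exon, and for HSPA8, where exons of other transcripts cover the region, only 30 bases around the nearest element are given. HSPA1A (chr6:31783200-31783319, plus strand) and HSPA1B (chr6:31795395-31795514, plus strand) are near copies, and DNAJB1 (chr19:14629220-14629329), HSPA8 (chr11:122932878-122932907), HSP90AA1 (chr14:102553382-102553501) and HSPA5 (chr9:128003662-128003742) lie on the minus strand.
HSPA1A: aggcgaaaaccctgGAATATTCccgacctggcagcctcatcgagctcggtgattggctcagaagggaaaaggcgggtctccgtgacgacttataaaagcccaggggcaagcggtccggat
HSPA1B: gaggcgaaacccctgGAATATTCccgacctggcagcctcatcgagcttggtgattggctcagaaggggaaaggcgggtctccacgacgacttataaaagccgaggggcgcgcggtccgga
DNAJB1: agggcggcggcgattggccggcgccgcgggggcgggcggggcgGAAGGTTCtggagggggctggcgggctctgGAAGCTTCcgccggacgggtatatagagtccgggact
HSPA8: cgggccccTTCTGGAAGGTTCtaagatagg
HSP90AA1: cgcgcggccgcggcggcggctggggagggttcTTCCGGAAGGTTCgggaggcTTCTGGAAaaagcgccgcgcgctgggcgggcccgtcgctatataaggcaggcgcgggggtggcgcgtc
HSPA5: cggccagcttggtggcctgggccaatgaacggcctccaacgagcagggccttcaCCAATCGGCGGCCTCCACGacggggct

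Windows of 250 bases before 14 start sites of 9 members were searched on both strands, with GAANNTTC and TTCNNGAA each its own reverse complement. GAANNTTC was found in 7 of the 14 windows, against 5.78% of all 35116 RefSeq windows of that length, and TTCNNGAA in 3, against 6.62%. The heat shock element of 3 alternating units, which overlaps both of these words, was found in 3 windows, against 0.441% of all windows. It lay at -55 and -230 from the start in HSPA8, at -88 in HSP90AA1, and at -112 and -165 from the last of the 3 start sites of HSP90AB1, which lies 842 bases from the start of its main transcript. DNAJB1 held GAANNTTC at -47 and -77 before the start of its main transcript, HSPA1A at -106, HSPA1B at -105 and HSPB1 at -182. The ER stress element was found before HSPA5 alone among the members, at -66, and in 0.074% of all windows. TATAAA was found at -30 in HSPA1A and at -29 in HSPA1B, against 10.7% of all windows. None of these words occurred in the window of HSPH1, but that window was taken 484 bases from the start of its main transcript, so the bases just before that start were not searched. These matches describe the letters only.

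On the spike-in scale the change with THZ1 differed widely between the members. At 250 nM, DNAJB1 was left at 2.16% of its DMSO level in Ku and 5.08% in Cov, whereas HSP90AA1 was left at 87.2% and 52.9%. Calls needed a log2 fold change beyond 0.5 and an adjusted p under 0.001 (limma on log2(FPKM + 1), two-sided, Benjamini-Hochberg over the active genes). By this rule 3 of the 10 members were called lower in Ku at 50 nM, where 11.3% of all active genes were, and 8 at 250 nM, where 68.6% were. In Cov, 6 were called lower at 50 nM, beside 70.5% of all active genes, and all 10 at 250 nM, beside 84%. No member was called higher, beside 0.0842% of active genes in Ku at 50 nM, 0.0491% at 250 nM, 0.0772% in Cov at 50 nM and 0.105% at 250 nM. Under other scalings some of these directions turned.

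The side of the members' median relative to that of all active genes changed with dose, and depended on which genes were counted as active. The median log2 fold change of the 10 members was -0.16 in Ku at 50 nM against -0.40 over all active genes, and -1.40 against -1.11 at 250 nM. In Cov the medians were -0.64 against -0.85 at 50 nM and -1.83 against -1.31 at 250 nM. Of the 10 members, 4 lay below the median of all active genes at 50 nM and 6 at 250 nM, in each line. With a pseudocount of 0.1 in place of 1 the gap at 250 nM nearly closed in Ku, at -1.42 for the members against -1.39 for all active genes, and stayed in Cov, at -1.86 against -1.55, with 5 members below in each line. At 50 nM that pseudocount left 3 members below in Ku and 2 in Cov. With no minimum FPKM, the median over all 23621 rows was nearer zero and the members' median lay below it in all 4 comparisons. The values were -0.16 against -0.13 in Ku at 50 nM, -1.40 against -0.50 at 250 nM, -0.64 against -0.50 in Cov at 50 nM and -1.83 against -0.70 at 250 nM, with 5, 8, 8 and 10 members below. As these are bulk samples, a fall in the number of cells that carry a transcript and a fall in RNA per cell cannot be told apart.

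**Figure D1:**
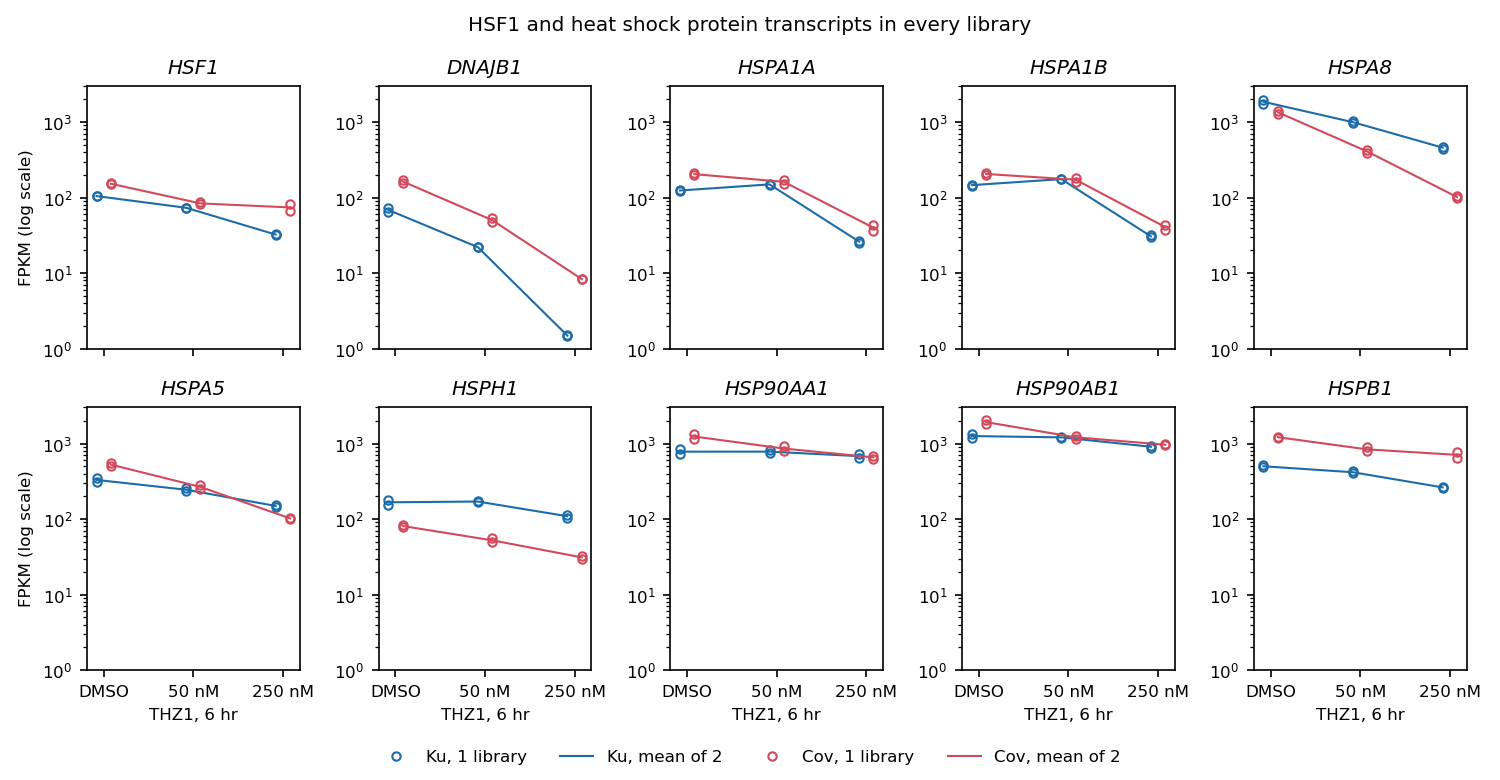
FPKM on a log scale of each of the 10 genes against treatment, with 1 open circle per library and a line through the mean of the 2 libraries of a group, in blue for Ku and red for Cov. DNAJB1 drops the furthest, to 1.48 FPKM on average in Ku at 250 nM, while the lines of HSP90AA1 and HSP90AB1 stay nearly level in Ku. The values are on the authors' spike-in scale.

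HSF1 itself fell on the spike-in scale, at both doses in both lines. The Ku DMSO libraries held 105 and 104 FPKM of HSF1, the 50 nM libraries 73.7 and 72.8, and the 250 nM libraries 32.2 and 32.5. The Cov DMSO libraries held 149.6 and 155 FPKM, the 50 nM libraries 86.2 and 81.2, and the 250 nM libraries 66.7 and 81.4. Every treated library lay below both DMSO libraries of its line, but in Cov the ranges of both doses overlapped. The log2 fold change against DMSO was -0.51 ± 0.054 (SE; adjusted p = 0.000901) in Ku at 50 nM and -1.66 ± 0.054 (adjusted p = 6.91e-06) at 250 nM. The Ku call at 50 nM was lost in each of the 6 fits without 1 Ku library, at -0.52 to -0.50. In Cov it was -0.86 ± 0.108 (adjusted p = 0.000223) and -1.04 ± 0.108 (adjusted p = 5.02e-05). Relative to the median of all active genes, HSF1 was lower by a log2 value of -0.55 in Ku at 250 nM and higher by 0.27 in Cov at that dose, and at 50 nM in Cov it lay at that median, at -0.007. With a pseudocount of 0.1 the 250 nM distances were -0.30 in Ku and 0.50 in Cov, and against the median of all rows with no minimum FPKM they were -1.16 and -0.34, so the side in Cov depended on the genes counted. The direction in Cov at 250 nM turned when libraries were rescaled to a common median of ratios (0.56) or to equal total FPKM (0.0010), and at 50 nM under the median of ratios (0.16 in Cov, 0.045 in Ku). The Cov call at 50 nM was lost without DMSO replicate 1 or without DMSO replicate 2, with log2 fold changes of -0.90 to -0.81 over all 6 libraries left out.

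DNAJB1, the J-domain protein that loads clients onto inducible HSP70, had the deepest fall of the members at 250 nM in both lines. In Ku it went from 72.9 and 64.2 FPKM in DMSO to 22.3 and 21.8 at 50 nM and to 1.49 and 1.47 at 250 nM. In Cov it went from 157 and 171 FPKM to 47.7 and 52.9, and then to 8.31 and 8.35. No groups overlapped in either line, and each step was many times the gap between libraries of a group. Against DMSO the log2 fold change was -1.59 ± 0.096 in Ku (adjusted p = 0.000274) and -1.68 ± 0.090 in Cov (adjusted p = 2.16e-05) at 50 nM. At 250 nM it was -4.81 ± 0.096 in Ku (adjusted p = 4.94e-06) and -4.14 ± 0.090 in Cov (adjusted p = 8.16e-07), as limma with Benjamini-Hochberg adjustment gave it. Of the 14251 active genes, 34 in Ku and 47 in Cov had a lower log2 fold change than DNAJB1 at 250 nM. DNAJB1 stayed called lower at 250 nM under both rescalings tried, at -3.62 in Ku and -2.60 in Cov under the median of ratios.

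HSPA1A and HSPA1B, the stress-inducible HSP70 genes, moved in a different pattern, with no call at 50 nM and a steep fall at 250 nM. HSPA1A lay at 126 and 122 FPKM in Ku DMSO libraries, at 148 and 151 at 50 nM, and at 25.3 and 26.8 at 250 nM. In Cov it lay at 197 and 211 FPKM in DMSO, at 170.1 and 153 at 50 nM, and at 36.6 and 43.1 at 250 nM. Both 50 nM libraries thus lay above both DMSO libraries in Ku and, on the spike-in scale, below them in Cov, where the log2 fold change turned to 0.69 under the median of ratios and 0.15 under equal total FPKM. At 50 nM HSPA1A had a log2 fold change of 0.27 ± 0.059 in Ku (adjusted p = 0.0107) and -0.34 ± 0.107 in Cov (adjusted p = 0.0182), and neither was called. At the higher dose it was -2.21 ± 0.059 in Ku (adjusted p = 6.52e-06) and -2.33 ± 0.107 in Cov (adjusted p = 1.24e-06). Between 50 and 250 nM, HSPA1A fell to 17.4% of its level in Ku and 24.7% in Cov, and 250 and 189 of the 14251 active genes had a lower log2 fold change in that comparison.

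HSPA1B followed HSPA1A so closely that the 2 rows cannot be read as separate measurements. It lay at 148 and 144 FPKM in Ku DMSO libraries, at 175 and 176 at 50 nM and at 29.9 and 31.6 at 250 nM, and in Cov at 199 and 212, at 183 and 162 and at 37.4 and 44. The ratio of HSPA1B to HSPA1A was 1.003 to 1.181 over the 12 libraries. The 2 genes are neighbours on chromosome 6, at chr6:31783320-31785723 and chr6:31795515-31798031 in GRCh37. Of all windows of 75 bases, the read length, in the main HSPA1A transcript, 73.8% also occur in HSPA1B, and 226 of the 240 bases before their starts are identical. How the authors' counting split such reads was not given in the sources used here. An exon of another gene on the same strand, ENSG00000285565, covers 36.55% of the exonic bases of HSPA1B, which strand cannot separate. The sum of both rows, which does not depend on the split within the pair but carries any reads of that overlapping gene, came to 120.3% of the DMSO level in Ku and 81.6% in Cov at 50 nM, and to 21.02% and 19.7% at 250 nM. For HSPA1B alone the 50 nM value was 0.26 ± 0.057 in Ku (adjusted p = 0.00999) and -0.25 ± 0.108 in Cov (adjusted p = 0.0585) on the log2 scale, and neither was called. The Cov value turned to 0.77 under the median of ratios and 0.24 under equal total FPKM.

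HSPA8, the constitutive HSP70 of the cytosol and the most abundant member in Ku DMSO libraries, fell at both doses on the spike-in scale. Ku DMSO libraries held 1967 and 1743 FPKM of HSPA8, 50 nM libraries 1021 and 969, and 250 nM libraries 473 and 444. Cov DMSO libraries held 1278 and 1419 FPKM, 50 nM libraries 386 and 426, and 250 nM libraries 104 and 99.2. The groups were separate in both lines. In log2 terms HSPA8 changed at 50 nM by -0.90 ± 0.085 in Ku (adjusted p = 0.000641) and -1.73 ± 0.096 in Cov (adjusted p = 2.16e-05). At 250 nM it reached -2.01 ± 0.085 in Ku (adjusted p = 9.42e-06) and -3.71 ± 0.096 in Cov (adjusted p = 8.16e-07), where 82 active genes had a lower value. In Cov, 7.54% of the HSPA8 level was left and in Ku 24.7%, and the difference between lines was not tested. The fall in Cov stayed called at 250 nM under the median of ratios, at -2.10, and in Ku it kept its direction there, at -0.56, without the call.

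HSPA5, or BiP, the HSP70 of the endoplasmic reticulum and a target of the unfolded protein response, was called lower in Ku at 250 nM and in Cov at both doses. It went from 349 and 309.5 FPKM to 254 and 235 and to 156 and 142 in Ku. In Cov it went from 498 and 553 FPKM to 251 and 281 and to 103 and 101. No groups overlapped. At 50 nM the log2 fold change was -0.43 ± 0.087 in Ku (adjusted p = 0.00802), which was not called and turned to 0.13 under the median of ratios, and -0.98 ± 0.095 in Cov (adjusted p = 7.34e-05). At 250 nM it was -1.14 ± 0.087 in Ku (adjusted p = 4.61e-05), which turned to 0.31 under the median of ratios, and -2.35 ± 0.095 in Cov (adjusted p = 9.76e-07). The Cov value at 50 nM also turned under the median of ratios, to 0.047. Against the median of all active genes the 250 nM values were -0.03 in Ku and -1.04 in Cov, and the Ku distance moved to 0.25 with a pseudocount of 0.1 and to -0.64 with no minimum FPKM.

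HSPH1, an HSP110 exchange factor of HSP70, was called lower in Ku only at 250 nM and in Cov at both doses. Its Ku levels were 178 and 155 FPKM in DMSO, 175 and 166 at 50 nM and 114 and 104 at 250 nM, and the DMSO and 50 nM ranges overlapped. Its Cov levels were 78 and 83.7 FPKM in DMSO, 49 and 55.5 at 50 nM and 32.2 and 29.9 at 250 nM, with no overlap. Against DMSO its log2 fold change was 0.036 ± 0.086 in Ku at 50 nM (adjusted p = 0.74) and -0.61 ± 0.086 at 250 nM (adjusted p = 0.00067), and it was -0.62 ± 0.095 (adjusted p = 0.000556) and -1.35 ± 0.095 (adjusted p = 6.59e-06) in Cov. The Ku call at 250 nM was lost in 5 of the 6 fits without 1 Ku library, all but that without DMSO replicate 2. Over all 6 fits the values ran from -0.70 to -0.51. With all libraries the Ku value at 250 nM turned to 0.84 under the median of ratios and 0.34 under equal total FPKM. The Cov call at 50 nM was lost without DMSO replicate 1, DMSO replicate 2 or 50 nM replicate 1, with values of -0.71 to -0.54 over all 6 libraries left out. Under the median of ratios the Cov value turned to 0.39 at 50 nM and to 0.23 at 250 nM.

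HSP90AA1, the inducible HSP90 of the cytosol, and HSP90AB1, the constitutive one, kept the largest shares of their DMSO level among the members in Ku at 250 nM on the spike-in scale. HSP90AA1 lay at 835 and 724 FPKM in Ku DMSO libraries, at 821 and 741 at 50 nM and at 717 and 643 at 250 nM. HSP90AB1 lay at 1336 and 1173 FPKM, at 1234 and 1178, and at 931 and 882. For both genes the 50 nM range lay inside the DMSO range, and the 250 nM libraries lay below both. At 250 nM the log2 fold changes were -0.20 ± 0.104 for HSP90AA1 (95% confidence interval -0.45 to 0.06; adjusted p = 0.119) and -0.47 ± 0.087 for HSP90AB1 (-0.68 to -0.25; adjusted p = 0.0024), and neither was called. Of the 14251 active genes, 13137 had a lower log2 fold change than HSP90AA1 at 250 nM in Ku, and 11912 than HSP90AB1.

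In Cov both HSP90 genes were called lower at 250 nM on the spike-in scale. HSP90AA1 lay at 1143 and 1330.4 FPKM in DMSO, at 793 and 921 at 50 nM and at 679 and 630.4 at 250 nM. HSP90AB1 lay at 1795 and 2046 FPKM, at 1164 and 1251, and at 978 and 949. Treated and DMSO libraries did not overlap. At 250 nM the log2 fold change was -0.91 ± 0.120 for HSP90AA1 (adjusted p = 0.000188) and -0.99 ± 0.105 for HSP90AB1 (adjusted p = 5.48e-05). The HSP90AA1 call was lost without 250 nM replicate 2, and its values ran from -1.02 to -0.80 over all 6 fits without 1 Cov library. At 50 nM the log2 fold change was -0.53 ± 0.120 for HSP90AA1 (adjusted p = 0.00409), not called, and -0.67 ± 0.105 for HSP90AB1 (adjusted p = 0.000647). The HSP90AB1 call was lost in 5 of 6 fits without 1 Cov library, all but that without DMSO replicate 1. Over all 6 fits its values ran from -0.76 to -0.57. The 50 nM values turned to 0.50 for HSP90AA1 and 0.36 for HSP90AB1 under the median of ratios. At 250 nM these falls turned into rises under the median of ratios, to 0.70 for HSP90AA1 and 0.62 for HSP90AB1 in Cov at 250 nM, and to 1.26 and 0.99 in Ku, all 4 of which were called higher. Under equal total FPKM the 250 nM values were 0.13 and 0.057 in Cov and 0.76 and 0.49 in Ku.

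HSPB1, or HSP27, a small heat shock protein that holds unfolded proteins without using ATP, was called lower only at 250 nM. Its Ku levels were 486 and 513 FPKM in DMSO, 401 and 432 at 50 nM and 265 and 259.5 at 250 nM. Its Cov levels were 1190.2 and 1234 FPKM in DMSO, 886 and 785 at 50 nM and 634 and 779.8 at 250 nM. Treated libraries lay below both DMSO libraries in each line. Its 50 nM log2 fold change was -0.26 ± 0.064 in Ku (adjusted p = 0.0156) and -0.54 ± 0.125 in Cov (adjusted p = 0.0045), and neither was called. At 250 nM it was -0.93 ± 0.064 in Ku (adjusted p = 3.37e-05) and -0.78 ± 0.125 in Cov (adjusted p = 0.000558), both of which turned under the median of ratios, to 0.53 and 0.83, and under equal total FPKM, to 0.028 and 0.26. The 50 nM values turned under the median of ratios to 0.29 in Ku and 0.49 in Cov, and under equal total FPKM to 0.037 in Ku. The Cov call at 250 nM was lost without DMSO replicate 1, DMSO replicate 2 or 250 nM replicate 1, with values of -0.93 to -0.64 over all 6 libraries left out. It was also lost with no minimum FPKM (adjusted p = 0.00213 by limma).

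**Figure D2:**
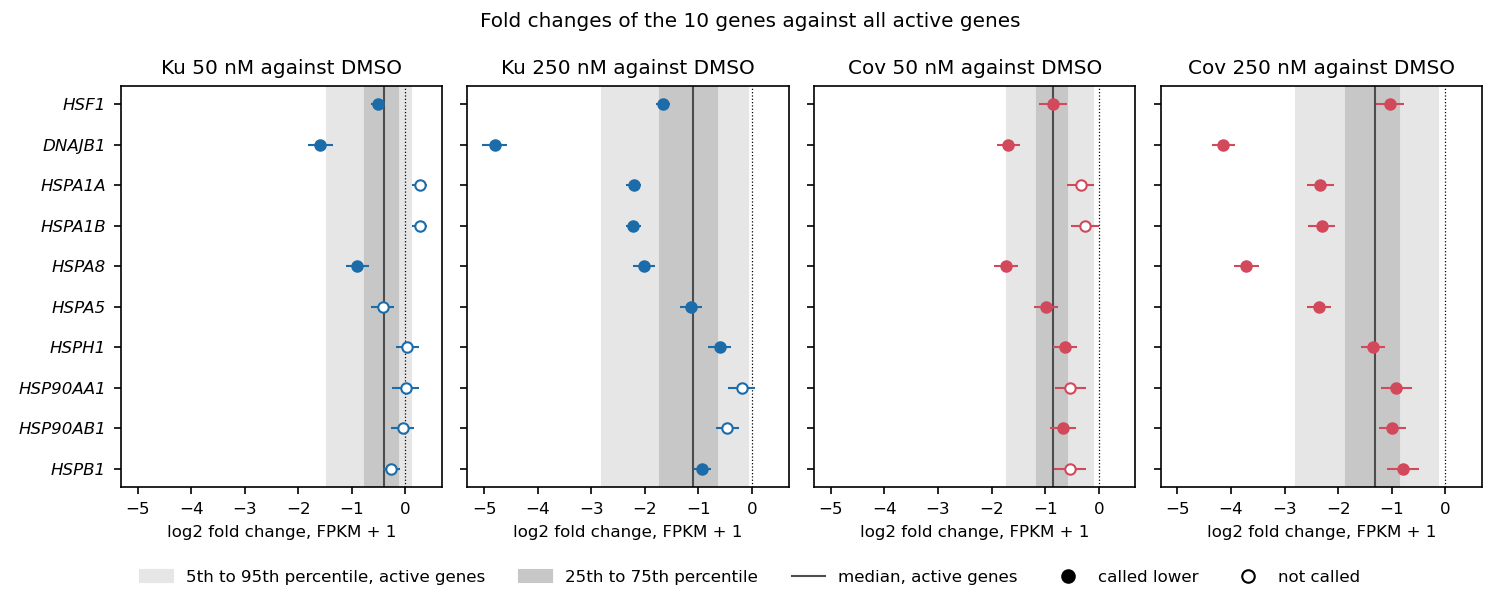
Log2 fold change against DMSO on the log2(FPKM + 1) scale for each gene in 4 panels, with 95% confidence intervals and filled points for genes called lower. Grey bands hold the 5th to 95th and the 25th to 75th percentile of all active genes and the line is their median, which lay at -0.40, -1.11, -0.85 and -1.31 from left to right. DNAJB1 lies outside the wide band in 3 of the panels and just inside it in Cov at 50 nM, and HSPA1A and HSPA1B cross from the right side of the median at 50 nM to the left side at 250 nM.

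At 50 nM in Ku, 5 members lay with both treated libraries below both DMSO libraries, as 75.8% of active genes did, 2 lay above, as 3.45% did, and 3 overlapped. The 2 above were HSPA1A and HSPA1B, which share most of their 75-base windows, and the 3 that overlapped were HSP90AA1, HSP90AB1 and HSPH1. All 10 members lay below DMSO in Ku at 250 nM, as did 95.9% of active genes, in Cov at 50 nM, as did 95.7%, and in Cov at 250 nM, as did 95.6%. The smallest p that an exact permutation test allows for 1 gene with 2 libraries against 2 is 0.33. The 3 calls in Ku at 50 nM (DNAJB1, HSPA8 and HSF1) were all lost in each of the 6 fits without 1 Ku library, with log2 fold changes that stayed at -1.68 to -1.50, -0.98 to -0.81 and -0.52 to -0.50. Calls over all active genes fell in those fits too.

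From 50 to 250 nM, on the spike-in scale, 8 members were called lower in Ku, beside 36% of active genes, and 6 in Cov, beside 24.4%. The 8 in Ku were all but HSP90AA1 and HSP90AB1, and fewer members were called in each fit without a 50 nM or 250 nM library. Calls over all active genes fell in those fits too. No member was called higher, beside 0.0421% of active genes in Ku and 0.0842% in Cov. Both 250 nM libraries lay below both 50 nM libraries for 10 members in Ku, as for 87.7% of active genes, and for 9 in Cov, as for 75.6%. The 6 called in Cov were DNAJB1, HSPA1A, HSPA1B, HSPA8, HSPA5 and HSPH1. DNAJB1 had the largest step, at -3.21 ± 0.096 in Ku (adjusted p = 2.79e-05) and -2.46 ± 0.090 in Cov (adjusted p = 3.38e-05), and HSPA1B followed at -2.48 ± 0.056 (adjusted p = 2.27e-05) and -2.06 ± 0.108 (adjusted p = 3.66e-05). HSPA1A was close behind, at -2.47 ± 0.059 (adjusted p = 2.27e-05) and -1.99 ± 0.107 (adjusted p = 3.68e-05). HSF1 changed by -1.16 ± 0.054 in Ku (adjusted p = 5.3e-05) and by -0.18 ± 0.108 in Cov (95% confidence interval -0.44 to 0.08; adjusted p = 0.189), where both doses overlapped. Under the median of ratios 3 of the called falls in Ku turned, to 0.18 for HSPA5, 0.23 for HSPB1 and 0.25 for HSPH1, and the members' median went from -0.91 to -0.02. There 3 members were called lower in Ku, beside 11.1% of active genes, and 5 in Cov, beside 7.92%.

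These differences changed the order of the transcripts. In Ku DMSO libraries the order by FPKM, which is per length, was HSPA8, HSP90AB1, HSP90AA1, HSPB1, HSPA5, HSPH1, HSPA1B, HSPA1A, HSF1 and DNAJB1, and the libraries of neighbours did not overlap. At 250 nM HSPA8 stood at place 3 behind HSP90AB1 and HSP90AA1, and HSF1 had passed HSPA1B and HSPA1A. In Cov DMSO libraries the order began with HSP90AB1, then HSPA8, HSP90AA1 and HSPB1, with HSPA8 overlapping HSP90AA1 and HSP90AA1 overlapping HSPB1, and ended with DNAJB1, HSF1 and HSPH1. At 250 nM HSPA8 had dropped to place 5 in Cov, level with HSPA5, at means of 101.7 and 102 FPKM, and DNAJB1 stood last at 8.33 FPKM. Together the 10 members made up 0.349% to 0.454% of all FPKM in every library.

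The direction of several of these changes depended on the scale. The deposited values are scaled to spike-ins, and on that scale the median of all active genes lay below zero in every comparison with DMSO. Rescaling the libraries of a line by the median of gene ratios, which sets that median to about zero, left 3 members lower and 3 higher in Ku at 250 nM, and 3 lower and 2 higher in Cov. Over all active genes that scale gave 19% lower and 11.1% higher in Ku and 18.9% and 8.57% in Cov. Those lower were DNAJB1 (-3.62), HSPA1A (-0.78) and HSPA1B (-0.78) in Ku and DNAJB1 (-2.60), HSPA8 (-2.10) and HSPA5 (-0.74) in Cov. HSPA1A and HSPA1B kept their direction in Cov, at -0.74 and -0.71, without being called. Those higher were HSP90AA1 (1.26), HSP90AB1 (0.99) and HSPH1 (0.84) in Ku and HSP90AA1 (0.70) and HSP90AB1 (0.62) in Cov. Which scale reflects the amount of RNA per cell was not tested.

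**Figure D3:**
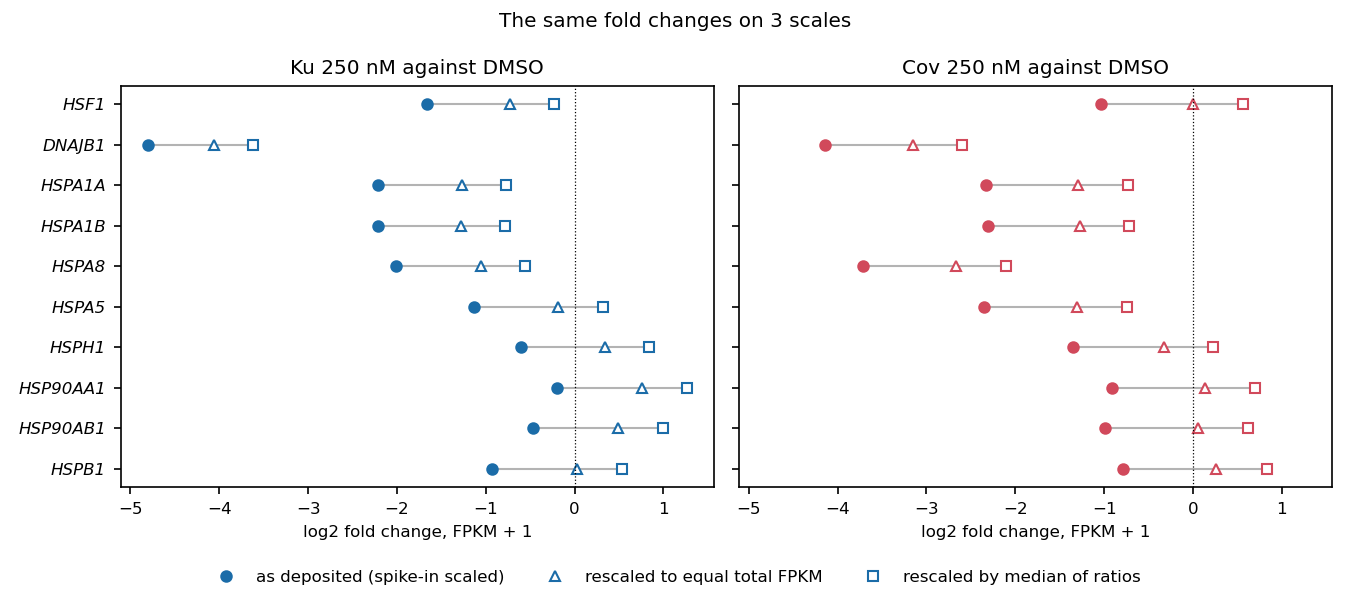
Log2 fold change at 250 nM against DMSO of each gene in Ku (left) and Cov (right) on 3 scales, with circles for the deposited spike-in values, triangles for libraries rescaled to equal total FPKM and squares for the median of ratios. DNAJB1, HSPA1A, HSPA1B and HSPA8 stay left of zero on all 3 scales in both lines, while HSP90AA1, HSP90AB1 and HSPB1 cross it in both on either rescaling and HSPH1 crosses it in both under the median of ratios.

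Outside the 10 members, 63 further chaperone, co-chaperone and HSF genes in 8 lists were examined, of which 60 were active. On the spike-in scale 4 of the 60 were called lower in Ku at 50 nM, beside 11.3% of all active genes, and 48 at 250 nM, beside 68.6%. In Cov 47 were called lower at 50 nM, beside 70.5%, and 57 at 250 nM, beside 84%, with no call higher at any dose. The 50 nM counts mostly vanished on the other scales. Under the median of ratios 2 were lower in Ku, beside 2.72% of all active genes, and 0 in Cov, beside 0.772%, and under equal total FPKM 2 in Ku, beside 4.17%, and 6 in Cov, beside 24.3%. Under the median of ratios the picture turned at 250 nM, with 8 lower and 24 higher in Ku and 9 lower and 12 higher in Cov, beside 19% lower and 11.1% higher of all active genes in Ku and 18.9% and 8.57% in Cov. Under equal total FPKM 13 were lower and 1 higher in Ku, beside 26.7% and 1.75% of all active genes, and 20 lower and 0 higher in Cov, beside 37.6% and 0.365%. HSPA6, an HSP70 that is nearly silent without strong heat stress, was not active, at 0.112 to 0.569 FPKM in the 12 libraries, and neither were HSPB6 and HSPB7.

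Among the other regulators, HSF2, a second heat shock factor, fell on the spike-in scale in Ku from 18.9 and 16.8 FPKM in DMSO to 4.2 and 4.58 at 250 nM, and in Cov from 8.83 and 9.65 to 1.28 and 1.45. Its log2 fold change at 250 nM was -1.81 ± 0.137 in Ku (adjusted p = 4.55e-05) and -2.11 ± 0.175 in Cov (adjusted p = 1.45e-05). HSBP1, a small protein that binds active HSF1 trimers, was at -0.33 ± 0.118 in Ku (adjusted p = 0.0346), not called, and at -0.93 ± 0.117 in Cov (adjusted p = 0.000139). HSF4 lay at means of 1.95 FPKM in Ku and 1.86 FPKM in Cov in DMSO and had the highest value of the 3, at -0.13 in Ku and 0.10 in Cov, with overlapping libraries. Of the 3 genes, 1 was called lower in Ku, beside 68.6% of active genes, and 2 in Cov, beside 84%. Under the median of ratios HSF2 kept its direction without the call, at -0.51 in Ku and -0.88 in Cov, and HSBP1 turned and was called higher, at 1.1 and 0.66. The median of the 3 then went from -0.33 to 0.82 in Ku and from -0.93 to 0.66 in Cov, with HSF4 also called higher in Cov at 1.13.

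The J-domain proteins of the cytosol, partners of HSP70 like DNAJB1, had 7 of 8 called lower in Ku, beside 68.6% of active genes, and 8 of 8 in Cov, beside 84%, at 250 nM on the spike-in scale, with medians of -1.51 and -1.84 that became -0.24 and -0.41 under the median of ratios, with 4 lower and 2 higher in Ku and 2 lower in Cov. DNAJB4 was lowest in Ku at -2.63 ± 0.131 (adjusted p = 1.32e-05) and DNAJA2 in Cov at -3.08 ± 0.108 (adjusted p = 8.22e-07), and DNAJA4 was highest in both, at -0.39 and -1.02. None of the 8 was as low as DNAJB1. DNAJA1 was at -1.11 in Ku and -2.13 in Cov at 250 nM, both called.

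Co-chaperones of the cytosol had 12 of 13 called lower in Ku (68.6% of active genes) and 13 of 13 in Cov (84%) at 250 nM, with medians of -1.13 and -1.23 that turned to 0.29 and 0.32 under the median of ratios, with 2 lower and 3 higher in Ku and 2 lower and 4 higher in Cov. BAG3, an HSF1 target that links HSP70 to autophagy, was called lower in Ku at 250 nM, beside 68.6% of active genes. It was not called in Ku at 50 nM, where 11.3% were. It lay at 37 and 33.9 FPKM in Ku DMSO libraries, at 38.1 and 37 at 50 nM and at 6.17 and 7.25 at 250 nM, and in Cov at 47.3 and 49.3, at 27.6 and 26.6 and at 6.92 and 6.4. Its log2 fold change at 50 nM was 0.083 ± 0.099 in Ku (adjusted p = 0.509) and -0.81 ± 0.085 in Cov (adjusted p = 9.69e-05), where it turned to 0.19 under the median of ratios and was not called. At 250 nM it was -2.24 ± 0.099 (adjusted p = 1.04e-05) and -2.69 ± 0.085 (adjusted p = 8.16e-07). BAG2 was the lowest in Ku at -2.39, and CDC37, which brings kinases to HSP90, was the highest in both lines, at -0.51 and -0.62, and turned under the median of ratios to 0.94 and 0.97, both called higher.

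Of the other HSP70 and HSP110 genes of the cytosol, 4 of 5 active ones were called lower in Ku (68.6% of active genes) and 5 of 5 in Cov (84%) at 250 nM, with medians of -1.24 and -1.75 that became -0.03 and -0.31 under the median of ratios, with 0 lower in Ku and 1 lower in Cov. HSPA2 was lowest, at -1.78 in Ku and -2.24 in Cov, and HSPA4L highest, at -0.68 and -1.14. Of 5 active genes listed here as small heat shock proteins, without HSPB1, 2 were called lower in Ku and 3 in Cov, against the same 68.6% and 84%. Their medians of -0.69 and -0.80 became -0.02 and 0.48 under the median of ratios, with 0 lower and 2 higher in each line. HSPB2 was lowest in Ku at -2.04 and HSPB8 in Cov at -1.39, and HSPB11 in Ku (-0.43) and HSPB3 in Cov (-0.24) were highest. HSPB3 lay near the floor in every Cov library, at 0.0864 to 0.858 FPKM. It counted as active only through 1 Ku DMSO library, at 1.09 FPKM.

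ER chaperones and folding factors, the compartment of HSPA5, had 11 of 12 called lower in Ku (68.6% of active genes) and 12 of 12 in Cov (84%) at 250 nM, with medians of -0.74 and -1.48 that turned to 0.66 and 0.12 under the median of ratios, with 1 lower and 6 higher in Ku and 3 lower in Cov. HERPUD1, which serves the degradation of ER proteins, was lowest in both lines, at -3.06 ± 0.091 in Ku (adjusted p = 6.52e-06) and -3.54 ± 0.115 in Cov (adjusted p = 8.16e-07). HSP90B1, the ER form of HSP90, was the highest in Ku at -0.33 ± 0.094 (adjusted p = 0.0159), not called, and was called lower in Cov at -1.43. CRELD2 was the highest in Cov at -1.12.

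Mitochondrial chaperones had 4 of 6 called lower in Ku (68.6% of active genes) and 6 of 6 in Cov (84%) at 250 nM, with medians of -0.82 and -1.32 that turned to 0.63 and 0.30 under the median of ratios, with 1 lower and 3 higher in Ku and 1 lower and 2 higher in Cov. DNAJA3, the mitochondrial J-domain protein, was lowest, at -2.51 in Ku and -2.36 in Cov. The chaperonin pair HSPD1 and HSPE1 was at -0.50 ± 0.092 (adjusted p = 0.00231) and -0.48 ± 0.088 (adjusted p = 0.0023) in Ku, not called, and at -1.13 and -0.86 in Cov, both called. The TRiC chaperonin, which folds actin and tubulin, had 7 of 8 subunits called lower in Ku and 8 of 8 in Cov, against the same 68.6% and 84%, with medians of -0.71 and -1.27 that turned to 0.75 and 0.34 under the median of ratios, with 0 lower and 7 higher in Ku and 0 lower and 2 higher in Cov. Under equal total FPKM 0 subunits were called in Ku and 1, lower, in Cov. CCT2 was its lowest subunit in both lines, at -0.87 and -1.78, and CCT8 in Ku (-0.50) and CCT7 in Cov (-0.98) were the highest.

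**Figure D4:**
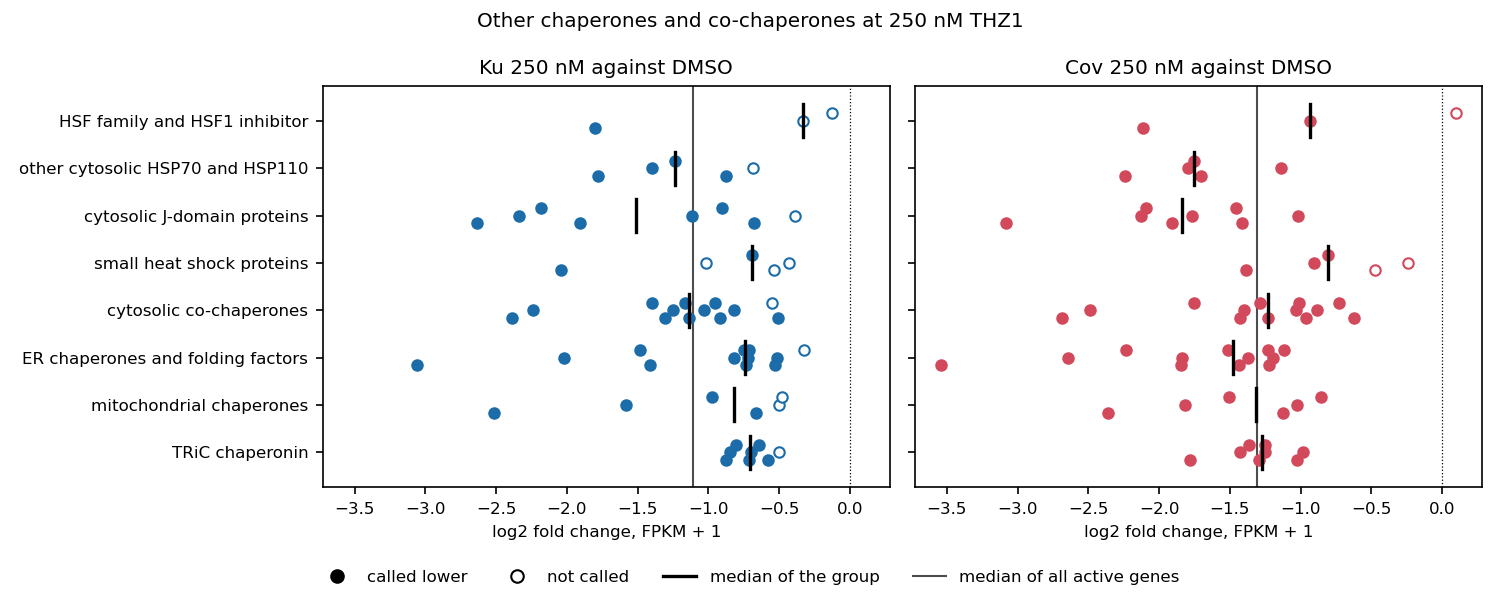
Log2 fold change at 250 nM against DMSO on the spike-in scale of the 60 active genes of the 8 lists in Ku (left) and Cov (right), with 1 point per gene, filled where called lower, a short bar at each list's median and a line at the median of all active genes. HERPUD1 is the lowest point in both panels, at -3.06 and -3.54. Under the median of ratios several list medians turn, as for TRiC to 0.75 and 0.34.

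Some of the reads behind these values could have come from neighbours or copies. Besides the HSPA1A and HSPA1B pair, windows of 75 bases in the main transcript were shared with other genes for 9.39% of HSPB1, 6.66% of HSP90AA1, 5.6% of HSP90AB1, 4.13% of HSPA5, 3.06% of HSF1, 1.92% of HSPA8 and none of DNAJB1 and HSPH1. The exons of DNAJB1, at chr19:14625581-14671203 in GRCh37, lie under exons of opposite-strand genes (TECR and MIR639) over 6.85% of their bases, and those of HSPA8, at chr11:122928197-122933938, over 11.4%. The library kit keeps strand, and whether the counting used it is not given in the sources used here.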

How the data were processed

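The authors sequenced poly-A RNA of Ku and Cov cells after 6 hr with DMSO, 50 nM or 250 nM THZ1, 2 libraries each, as single-end reads of 75 bases, and the series' text calls the pairs biological duplicates. HiSat placed the reads on hg19, and cuffquant and cuffnorm gave the FPKM that the authors normalized to ERCC spike-ins and deposited as 1 table per line. FPKM are not counts, and the read depth is unknown, so no counting interval is given. The 2 MIR1244 rows held 29.6% to 46.4% of a library's FPKM. Their share differed between groups, as in Cov, at 34.6% and 36.2% in DMSO and 41.9% and 46.4% at 50 nM. The equal total FPKM scale and the members' share of all FPKM therefore depend in part on these rows. ERCC rows were left out.

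Each line was fitted by itself on log2(FPKM + 1) with limma 3.58.1 in R 4.3.3, with a mean-variance trend and Benjamini-Hochberg adjustment over 14251 active genes. Fold changes on this scale understate those of low genes. The fit was tested on simulated data. The members and lists were chosen with earlier results of these data known, and list genes are named as each list's lowest and highest at 250 nM, beside 8 always named: BAG3, DNAJA1, HSPA6, HSPD1, HSPE1, HSP90B1, HSBP1 and HSF2. DNAJC3, HSPB6 and HSPB7 were named after their values were seen. Alternatives were a pseudocount of 0.1, a minimum of 10 or none, 2 rescalings, a fit of 2 groups, the replicate block, no trend, other thresholds and each library left out. Positions came from GENCODE lifted to GRCh37, and upstream sequences from RefSeq (GRCh38.p14). Shared windows used the GENCODE transcripts. Figures were drawn with matplotlib 3.10.9.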

Additional observations from a re-analysis of the deposited data

Results flagged for a closer look

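4 genes had fold changes of opposite sign in the lines at 50 nM on the spike-in scale, with both treated libraries above both DMSO libraries in Ku and below them in Cov. They were 4 of the 70 active members and list genes (5.71%), and 378 of the 14251 active genes (2.65%) met the same rule. HSPA1A and HSPA1B each count among the 4, though their rows cannot be read as separate measurements. The difference between the lines was not tested, since the tables were normalized separately, and the values themselves were not called in either line. The log2 fold change of HSPA1A was 0.27 in Ku and -0.34 in Cov, and that of HSPA1B, which shares 70.2% of its 75-base windows with HSPA1A, was 0.26 and -0.25. CDC37, the kinase co-chaperone of HSP90, was at 0.065 in Ku and -0.35 in Cov. DNAJC3, an ER J-domain protein, was at 0.20 in Ku and -0.32 in Cov. The Ku 95% confidence intervals of CDC37 (-0.06 to 0.19) and DNAJC3 (-0.08 to 0.47) held zero, as did that of HSPA1B in Cov (-0.51 to 0.0055). These opposite signs hold on the spike-in scale alone. In Cov the 4 values turned to 0.69 (HSPA1A), 0.77 (HSPA1B), 0.66 (CDC37) and 0.60 (DNAJC3) under the median of ratios and to 0.15, 0.24, 0.13 and 0.12 under equal total FPKM, and in Ku they stayed above zero on both scales.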

How the results depend on the processing

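A pseudocount of 0.1, a minimum FPKM of 10 and an adjusted p under 0.05 kept every count of called members within 1.5 times. For the 3 members lower in Ku at 50 nM, beside 1607 of 14251 active genes, no minimum gave 0, beside 3 of 23621 rows. The fit of 2 groups gave 0, beside 9 active genes, and no trend 1, beside 1159. A log2 fold change beyond 1 gave 1, beside 1228. The median of ratios gave 1, beside 388, and equal total FPKM 1, beside 594. The calls were lost in the fits without 1 Ku library, where calls over all active genes also fell. For the 8 lower in Ku at 250 nM, beside 9774 active genes, the median of ratios gave 3, beside 2708, and equal total FPKM 5, beside 3800. Those scales gave 3 and 1 higher, beside 1577 and 250. For the 8 lower in Ku from 50 to 250 nM, beside 5132 active genes, no minimum gave 4, beside 1901 rows. The median of ratios gave 3, beside 1580 active genes, and equal total FPKM 3, beside 1445. A log2 fold change beyond 1 gave 5, beside 3598, and some fits without 1 library gave fewer than the main fit. For the 6 lower in Cov at 50 nM, beside 10042 active genes, the median of ratios gave 1, beside 110, and equal total FPKM 2, beside 3467. A log2 fold change beyond 1 gave 2, beside 5054, and the fits without 1 library gave fewer than the main fit. For the 10 lower in Cov at 250 nM, beside 11971 active genes, the median of ratios gave 3 lower and 2 higher, beside 2694 and 1221. Equal total FPKM gave 5 lower, beside 5353. The cause of the other losses was not tested. The fit of 2 groups and the fits without 1 library have fewer samples, and the lone sample left in a group was assumed to vary like the others.

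The rescalings turned these directions by their own construction, since they move the median of all active genes from -1.11 to -0.00088 and -0.37 in Ku and from -1.31 to 0.011 and -0.44 in Cov at 250 nM. Among values against DMSO called on at least 1 of the scales compared, the log2 fold changes that turned under the median of ratios were HSF1 0.045 in Ku at 50 nM, then in Ku at 250 nM HSPA5 0.31, HSP90AA1 1.26, HSP90AB1 0.99, HSPB1 0.53 and HSPH1 0.84. In Cov at 50 nM they were HSF1 0.16, HSPA5 0.047, HSP90AB1 0.36 and HSPH1 0.39, and at 250 nM HSF1 0.56, HSP90AA1 0.70, HSP90AB1 0.62, HSPB1 0.83 and HSPH1 0.23. Under equal total FPKM they were HSP90AA1 0.76, HSPB1 0.028 and HSPH1 0.34 in Ku at 250 nM, and HSF1 0.0010, HSP90AA1 0.13, HSP90AB1 0.057 and HSPB1 0.26 in Cov at 250 nM. Values called on neither scale also turned. Under the median of ratios these were HSPA5 0.13, HSP90AB1 0.50 and HSPB1 0.29 in Ku at 50 nM, and HSPA1A 0.69, HSPA1B 0.77, HSP90AA1 0.50 and HSPB1 0.49 in Cov at 50 nM. Under equal total FPKM they were HSP90AB1 0.25 and HSPB1 0.037 in Ku at 50 nM, HSP90AB1 0.49 in Ku at 250 nM, and HSPA1A 0.15 and HSPA1B 0.24 in Cov at 50 nM. From 50 to 250 nM in Ku, the called falls that turned were HSPA5 0.18, HSPB1 0.23 and HSPH1 0.25 under the median of ratios and HSPH1 0.0083 under equal total FPKM, and in Cov none of the 6 turned on either scale.

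The replicate number as a block left 3 of the 6 members lower in Cov at 50 nM, with HSF1, HSP90AB1 and HSPH1 lost, and 9 of 10 in Cov at 250 nM, with HSPB1 lost, and 5 of 6 in Cov from 50 to 250 nM, with HSPH1 lost. Across the active genes, deviations of same-numbered libraries were correlated at -0.0087 to 0.00034 in Ku and -0.070 to 0.028 in Cov. Such a correlation leaves out any shift common to all genes of a library. Total FPKM was higher in replicate 1 than in replicate 2 in every Ku group, and lower in every Cov group. Whether same-numbered libraries share more than a number was therefore not tested. In the other comparisons with DMSO the block changed no member's call. With 2 libraries a group and unknown depth, small differences of low genes were not detectable.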
